A study of Arabidopsis thaliana with 4 samples.

Results

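Cytochrome P450 genes of *Arabidopsis thaliana* were described in the aboveground parts of plants, leaving out 11 genes of glucosinolate, jasmonate, carotenoid, flavonoid and wax synthesis. The genes were taken from the Pfam family Cytochrome P450 in the PacBio annotation list, which pairs families with reference transcripts. Of the 251 reference genes in the family, 240 remained without these 11, of 22145 reference genes with any Pfam family. Their levels came from 3 ONT Pc replicates, named CK1, CK2 and CK3, in which PCR-amplified cDNA was read through a nanopore, and 1 PacBio library gave isoforms of the whole family. All samples were untreated wild-type plants of the Columbia ecotype (Col-0), grown at 23 °C by day and 18 °C by night with 16 h of light and 8 h of dark, and harvested when the rosette was complete. Each ONT Pc replicate was a pool of several plants. There was 1 group of replicates and no second condition, so no difference between conditions could be tested.

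A level is given in CPM, the reads of a gene per 1000000 reads of its own replicate. The values were whole multiples of 1 read, so reads were recovered for each gene, and the replicates had 6835029 to 8122432 reads. The 5 leaf marker genes made up 52287 to 60532 CPM. Of 7 root markers 2 were listed, at 0.123 to 0.585 CPM in sum, and of 4 seed markers 1 was listed, at 0 to 0.271 CPM. All 5 flower markers had reads, at 2.34, 4.47 and 0.585 CPM in CK1, CK2 and CK3. Reads came from whole shoots, so fewer cells of a type and less RNA per cell cannot be told apart. The SDs below measure the spread between these 3 pools.

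Cytochrome P450s are heme-thiolate enzymes, most of which insert 1 oxygen atom into a substrate with electrons passed on by a reductase. In plants they form one of the largest enzyme families and act in the synthesis and breakdown of hormones, sterols, carotenoids, lignin monomers, cutin and many defence compounds. Their genes are named by family, subfamily and member, so that CYP71B7 is a member of subfamily CYP71B, and families are grouped into clans. Many stand in tandem arrays of close copies. A cysteine near the C terminus binds the heme iron, within the signature Phe-X-X-Gly-X-Arg-X-Cys-X-Gly.

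The coding sequences of the RefSeq annotation were searched for codons of this signature. A Pfam family is itself a match of protein sequence, so finding the signature in these genes describes them and is no independent support of the family. It was found in full in 192 of the 240 genes (80%), and 38 more differed at 1 of the fixed codons. It lay at a median of 86.7% of the coding sequence, whose median length was 1521 bases. None of 27311 protein-coding genes outside the family held the full signature, and 249 of them (0.912%) came within 1 codon of it. The 30 bases that encode it follow, 5′ to 3′ on the coding strand, for the most abundant genes and for genes whose reads differed most between replicates. The codon of the heme-binding cysteine is in capitals.
CYP71B7 (TAIR10.1, chr1:4468657-4468686, + strand): tttggttctggccggagaatcTGTcccggg
CYP84A1 (chr4:17137767-17137796, - strand): ttcgggtcgggtcgtagatcgTGCccgggt
CYP86A2 (chr4:162470-162499, + strand): tttaacgccggacctaggatcTGTctagga
CYP90A1 (chr5:1703163-1703192, - strand): tttggtggagggccaaggctaTGTcccggt
CYP97A3 (chr1:11398992-11399021, + strand): ttcggtggaggaccgcggaaaTGTataggc
CYP51G1 (chr1:3940394-3940423, + strand): ttcggagggggaaggcacgggTGCcttgga
CYP707A3 (chr5:18369223-18369252, - strand): tttggtagtgggattcattctTGTccaggc
CYP71B26 (chr3:9632947-9632976, - strand): tttgggagtggtaggagaattTGTcctgga
CYP706A1 (chr4:11931305-11931334, + strand): tttgggtcaggaaggaggattTGTgcggcg
CYP706A2 (chr4:11936403-11936432, + strand): tttgggtcaggaaggaggattTGTgcggcg

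CYP51G1, CYP707A3, CYP706A1 and CYP706A2 each differed from the signature at 1 fixed codon, and CYP706A1 and CYP706A2 shared the same 30 bases. Across the family there were 186 different sequences of the signature. The other 10 genes lacked it by more than 1 codon. They included CYP74B2, a hydroperoxide lyase of the CYP74 family, whose members rearrange fatty acid hydroperoxides without added oxygen. The annotated coding sequence of CYP74B2 was short, at 1155 bases against the median of 1521. AT5G42650, among the 11 genes left out, also lacked the signature, by 2 fixed codons, with 1557 coding bases. Why these genes lack it was not tested. The 10 genes also included AT3G20930, which RefSeq names an organelle RNA recognition motif protein and which overlaps CYP705A28. AT3G20930 had 87, 96 and 99 reads in CK1, CK2 and CK3, and its label as a P450 gene is in doubt.

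Of the 240 genes, 174 (72.5%) were listed in the ONT Pc table, compared with 84.7% of all reference genes with a Pfam family. Reads were found for 158 genes in at least 1 replicate and for 123 genes in every replicate. The other 16 listed genes were at 0 in all replicates, where 3 reads would be 0.369, 0.406 and 0.439 CPM in CK1, CK2 and CK3. A mean of at least 1 CPM was reached by 105 P450 genes (43.8%), compared with 66.4% of all Pfam genes. The UDP-glycosyltransferases, another large family of metabolic enzymes, had 54.3% of 116 genes at that level, and the glutathione S-transferases with an N-terminal domain had 68.8% of 64 genes. Both families were taken whole, whereas the P450 set lacked 11 genes, of which 10 reached 1 CPM. With those put back, 115 of 251 P450 genes reached it. These shares describe the libraries and were not tested. The median level of listed P450 genes was 2.27 CPM, and that of all 23281 features was 6.97 CPM.

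**Figure D1:**
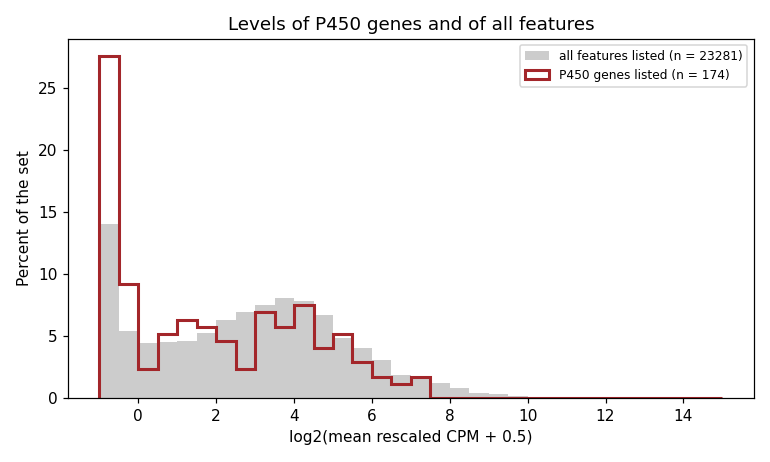
Histogram of log2(mean rescaled CPM + 0.5) over the 3 ONT Pc replicates, as percent of the 174 P450 genes listed (red line) and of all 23281 features listed (grey bars). The P450 genes lay lower, with a median of 2.27 CPM against 6.97 CPM.

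The 240 genes together made up 2209, 2544 and 2200 CPM in CK1, CK2 and CK3 (mean 2318 ± 196, SD, n = 3), that is 0.232% of all reads. A few genes held much of this. The 5 genes above 100 CPM held 30.3% of the summed level, the 49 genes from 10 to 100 CPM held 60.3%, and the 53 genes with reads but below 1 CPM held 0.507%. The 25 most abundant genes took 69.2% ± 1.26 (SD, n = 3) of the P450 reads.

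By CPM, CYP706A1 was the most abundant gene, with 1146, 1680 and 1091 reads in CK1, CK2 and CK3, or 176 ± 45.5 CPM (SD, n = 3, as for all values below). CYP71B7 followed with 1119, 1233 and 1080 reads, or 154 ± 14.9 CPM. Per length of annotated transcript the order of these genes was the reverse, with 82.5 ± 8.00 CPM per kb for CYP71B7 and 73.6 ± 19.0 CPM per kb for CYP706A1. The authors gave ONT levels as CPM, which has no term for transcript length. Values per kb are therefore given beside CPM only, and whether ONT Pc reads scale with length was not tested.

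CYP84A1, the ferulate 5-hydroxylase FAH1 of syringyl lignin and sinapate ester synthesis, had 1377, 1155 and 670 reads, or 141 ± 38.1 CPM and 70.9 ± 19.1 CPM per kb. Its level was lowest in CK3, at 98.0 CPM, compared with 170 and 156 CPM in CK1 and CK2. CYP86A2, a fatty acid hydroxylase of cutin synthesis, had 980, 1045 and 802 reads, or 126 ± 13.1 CPM and 57.1 ± 5.91 CPM per kb. CYP90A1 (CPD), an oxidase of brassinosteroid synthesis, had 729, 737 and 831 reads, or 104 ± 16.3 CPM and 53.8 ± 8.44 CPM per kb. These 5 genes were also the first 5 per kb.

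The genes at the next ranks were CYP97A3 (79.4 ± 9.76 CPM), CYP51G1 (70.1 ± 2.68 CPM), CYP97B3 (68.9 ± 10.99 CPM), CYP706A6 (61.4 ± 1.35 CPM) and CYP72A13 (53.6 ± 5.62 CPM). CYP97A3 hydroxylates carotenoid rings of photosynthetic membranes, and CYP51G1 is the sterol demethylase of membrane sterol synthesis. From rank 11 to rank 25 the levels ran from 48.6 ± 8.54 CPM for CYP71B4 to 27.9 ± 1.32 CPM for CYP81H1. These ranks held 5 CYP71B genes (CYP71B4, CYP71B20, CYP71B28, CYP71B2 and CYP71B19), 3 CYP72A genes (CYP72A11, CYP72A8 and CYP72A15) and 2 CYP89A genes. In CYP89A2 (38.9, 57.4 and 25.2 CPM), CYP96A4 (44.4, 48.6 and 28.4 CPM) and CYP71B2 (45.6, 44.4 and 24.6 CPM) the level in CK3 was lower than in both other replicates. The remaining ranks were held by CYP708A3 (33.4 ± 1.33 CPM), CYP85A2, CYP709B3 (28.5 ± 4.197 CPM) and CYP81H1. The order was loose: of the 25 steps from one gene to the next, starting at CYP706A1, 5 had the same direction in 3 of 3 replicates, and in 3 the mean difference exceeded its SD. These were CYP90A1 over CYP97A3, CYP97A3 over CYP51G1, and CYP706A6 over CYP72A13. An exact sign-flip permutation test over 3 replicates cannot go below p = 0.25 two-sided, so no step could pass that test. Of the 25 genes, 23 were also among the first 25 per kb.

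**Figure D2:**
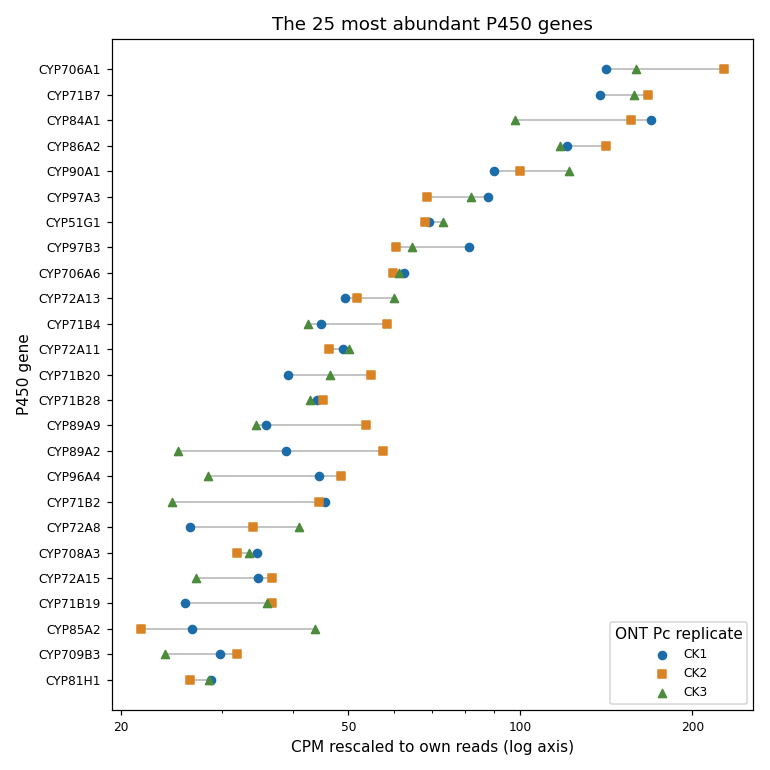
Levels of the 25 most abundant P450 genes in rescaled CPM (horizontal log axis), with 1 symbol per ONT Pc replicate and a grey line over their range. CYP706A1 leads at 176 CPM, its range reaches past CYP71B7 and CYP84A1, and most neighbours overlap.

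By clan, the CYP71 clan, also called A-type, held 143 of the 240 genes. Its part of the P450 level was close to its part of the genes, at 58.5% ± 3.17 (57.3%, 62.1% and 56.0% in CK1, CK2 and CK3). A-type P450s act mostly in pathways particular to plants, such as phenylpropanoids and defence compounds. The CYP85 clan held 10.3% ± 1.85, the CYP86 clan 10.03% ± 0.875 and the CYP72 clan 9.63% ± 0.821 of the level. The CYP97 clan, with 2 genes, held 6.47% ± 1.30.

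By family, CYP71 was the largest in genes and in level, with 50 genes, 32 of them listed, at 594 ± 92.0 CPM. Nearly all of that was CYP71B, at 555 ± 86.1 CPM over 34 genes. CYP706 came next with 277 ± 50.2 CPM from 7 genes, all listed. The CYP705 family showed the other extreme among large families, with 24 genes, 19 of them listed, at 47.3 ± 5.01 CPM in all. Of the 5 CYP79 genes in this set, 3 were listed and none had a read. The CYP79 family makes aldoximes from amino acids, and CYP79B2, CYP79B3, CYP79F1 and CYP79F2 were among the 11 genes left out. All 11 had reads in every replicate. Of the 6 CYP702 genes 1 was listed, with 0.0451 CPM on average.

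The genes with a well-known role were grouped into 20 lists with 80 genes. Of these, 66 were listed, 40 reached 1 CPM, and together they held 39.4% of the P450 level. The highest lists belonged to phenylpropanoids, brassinosteroids, carotenoids and cutin, and the lists of gibberellin inactivation and of the pollen wall were near 0.

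The 6 phenylpropanoid genes summed to 202, 185 and 128 CPM in CK1, CK2 and CK3. CYP84A1 made up most of this. CYP98A3, which hydroxylates the coumaroyl ring on the way to lignin, had 159, 108 and 121 reads (17.3 ± 2.50 CPM). CYP73A5, the cinnamate hydroxylase at the entry of the pathway, had 88, 80 and 58 reads (10.05 ± 1.35 CPM). Per kb, CYP84A1 was at 70.9 CPM per kb, CYP98A3 at 9.18 CPM per kb and CYP73A5 at 4.82 CPM per kb, and the lowest replicate of CYP84A1 was above the highest of both others. CYP84A4, of the arabidopyrone pathway, was at 2.81 ± 0.622 CPM. CYP98A8 and CYP98A9 act on phenolamides of pollen. CYP98A8 was listed at 0, and CYP98A9 had 2, 2 and 3 reads.

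The 6 genes of brassinosteroid synthesis summed to 133, 137 and 185 CPM, highest in CK3, and all had reads in every replicate. CYP90A1 was the most abundant of them, as given above. CYP85A2, which makes brassinolide in the last step, had 216, 160 and 299 reads (30.7 ± 11.6 CPM), whereas its close relative CYP85A1, which stops at castasterone, had 7, 7 and 8 reads (0.993 ± 0.159 CPM). CYP90B1 (DWF4), the side-chain hydroxylase often called rate-limiting, was at 7.35 ± 1.27 CPM. CYP90C1 (ROT3) was at 6.57 ± 0.204 CPM and CYP90D1, which acts at the same step, at 2.23 ± 0.625 CPM. Of the genes that inactivate brassinosteroids, CYP734A1 (BAS1) was at 5.96 ± 0.739 CPM and CYP72C1 at 1.81 ± 0.463 CPM.

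For gibberellins, CYP701A3 (GA3), the ent-kaurene oxidase, had 133, 155 and 117 reads (18.2 ± 2.48 CPM). The ent-kaurenoic acid oxidases CYP88A4 (KAO2) and CYP88A3 were at 19.2 ± 2.05 and 8.27 ± 0.327 CPM. The 3 synthesis genes summed to 46.0, 46.7 and 44.2 CPM, a narrow range. The inactivating genes CYP714A1 and CYP714A2 had 1 read between them.

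The 4 abscisic acid hydroxylases, which start the breakdown of that hormone, all had reads in every replicate and summed to 12.9, 23.3 and 21.9 CPM. CYP707A3 made the difference, with 41, 122 and 107 reads, or 5.05, 16.5 and 15.7 CPM. CK1 was below both other replicates. CYP707A1, CYP707A2 and CYP707A4 were at 1.97 ± 0.304, 2.83 ± 0.626 and 2.18 ± 0.242 CPM, and none of the 3 was lowest in CK1.

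Other hormone genes were low. CYP711A1 (MAX1), which oxidises carlactone in strigolactone synthesis, had 67, 83 and 57 reads (9.28 ± 1.70 CPM). The jasmonate-oxidising genes CYP94B1, CYP94B3 and CYP94C1 had 1 to 4 reads per replicate, and CYP94B2 was not listed. The cytokinin hydroxylases CYP735A1 and CYP735A2 had 1 and 2 reads in all.

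Carotenoid hydroxylation had CYP97A3 with 712, 507 and 560 reads and its relative CYP97B3 with 661, 448 and 442 reads. In both genes CK1 was the highest replicate, at 87.7 and 81.4 CPM. In sterol synthesis CYP51G1 had 561, 503 and 500 reads, with 69.1, 68.1 and 73.2 CPM. The sterol side-chain desaturase CYP710A2 was at 4.10 ± 1.43 CPM, CYP710A1 at 0.569 ± 0.254 CPM, and CYP710A3 and CYP710A4 were not listed.

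The cutin, suberin and fatty acid list was split. CYP86A2 made up most of its 148, 163 and 133 CPM, followed by CYP86A8, another cutin hydroxylase, at 9.16 ± 1.02 CPM. CYP86A1 and CYP86B1 act in suberin, mainly of roots: CYP86A1 had 1 read and CYP86B1 was not listed. AT5G08250 and CYP86C1 were not listed either, and CYP86C2, CYP86C3 and CYP86C4 were at 0.0939, 0.547 and 1.28 CPM.

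Of the 8 genes of this list with reads in every replicate, CK3 had the lowest CPM in 7, all but CYP86C3. Over features with reads in every replicate, CK3 was lowest in 24.98% of all 19820 and in 41.5% of the 123 P450 genes. CYP77A6, which acts in cutin of petals, had 38, 26 and 11 reads, and CYP86A4, which acts with it, had 35, 22 and 16 reads. CYP77A4, a fatty acid epoxidase, had 30, 22 and 9 reads, and CYP86A7 had 19, 9 and 5 reads. In these 4 genes CK1 was the highest and CK3 the lowest replicate. CYP86A8 had the same order, with 10.3, 8.66 and 8.49 CPM, whereas CYP86A2 and CYP86C4 were highest in CK2. The pollen wall gene CYP703A2 had 6, 1 and 0 reads, and CYP704B1, of the same pathway, was not listed. The sum of the 5 flower markers was also lowest in CK3 but highest in CK2. By gene, AG had 2, 7 and 2 reads, AP3 had 6, 4 and 2, PI had 6, 4 and 0, AP1 had 2, 3 and 0, and A9 had 3, 15 and 0. Their part in these levels was not tested.

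**Figure D3:**
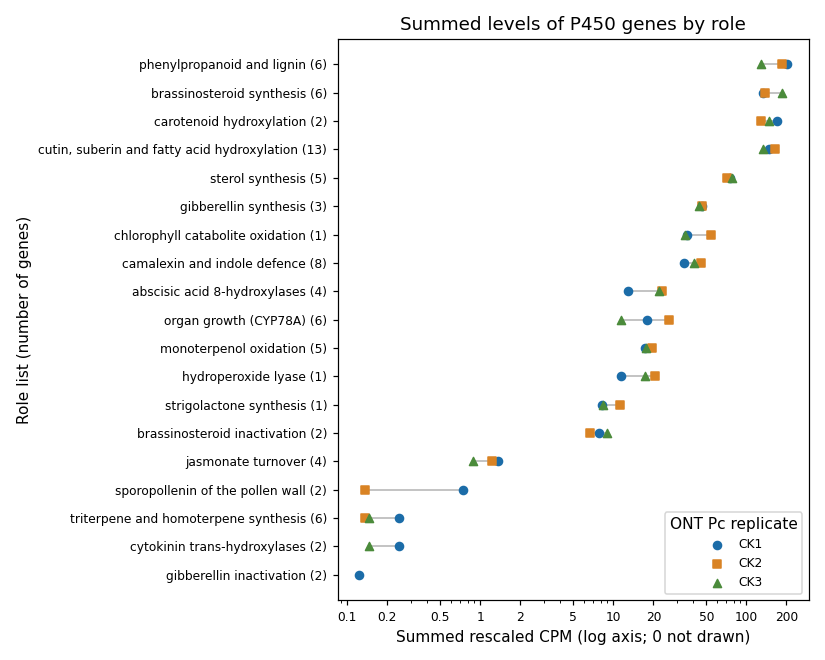
Summed levels of the role lists with reads, in rescaled CPM (horizontal log axis), with 1 symbol per ONT Pc replicate, a grey line over the range, and the number of genes in parentheses. Phenylpropanoid, brassinosteroid, carotenoid and cutin lists lie above 100 CPM, and lists of cytokinins, triterpenes and gibberellin inactivation below 1 CPM.

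In defence, the 8 genes of camalexin and indole metabolism summed to 34.2, 45.6 and 40.1 CPM. Most of it was CYP71B6, with 174, 231 and 201 reads (27.4 ± 5.23 CPM). CYP71B15 (PAD3), which makes camalexin, had 28, 54 and 18 reads (4.46 ± 2.50 CPM). CYP71A13, which supplies its precursor, had 12, 3 and 1 reads, and CYP71A12, its close copy, 2, 7 and 2 reads. PAD3 and CYP71A12 were highest in CK2, and CYP71A13 in CK1. The indole glucosinolate hydroxylases CYP81F1, CYP81F3 and CYP81F4 were at 3.89 ± 1.08, 1.01 ± 0.409 and 1.95 ± 0.451 CPM, and CYP82C2 had 2, 1 and 0 reads.

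Triterpene and homoterpene genes were almost absent: CYP708A2 had 1 read, CYP705A1 was listed at 0, CYP705A5, CYP71A16 and CYP716A1 were not listed, and the homoterpene synthase CYP82G1 had 1 read in each replicate. Many of these genes are known from roots. The iron-deficiency gene CYP82C4, also a root gene, was not listed. Among genes of monoterpenol oxidation, CYP76C1, a linalool oxidase, had 134, 142 and 120 reads (17.8 ± 1.38 CPM), CYP76C2 had 6, 3 and 1 reads and CYP76C3 had 1, 0 and 0. CYP76C4 and CYP71B31 were not listed.

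Of single-gene roles, CYP89A9, which oxidises chlorophyll catabolites in senescent leaves, had 291, 397 and 236 reads (41.4 ± 10.7 CPM). The hydroperoxide lyase gene CYP74B2 had 92, 153 and 118 reads (16.4 ± 4.75 CPM). Both were highest in CK2. Among the CYP78A genes of organ growth, CYP78A9 had 118, 159 and 64 reads (15.1 ± 6.10 CPM) and CYP78A6 had 24, 30 and 11 reads (2.88 ± 1.23 CPM), both lowest in CK3. CK3 was also the lowest replicate in 41.5% of the 123 P450 genes with reads in every replicate. CYP78A5 (KLUH) had 0, 0 and 3 reads, CYP78A7 0, 1 and 0, and CYP78A8 3, 2 and 0, whereas CYP78A10 was not listed.

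The spread between replicates was described on log2(CPM + 0.5) for the 106 P450 genes with at least 20 reads in all. Their median SD was 0.257, against 0.208 for the 17838 features with as many reads. Much of this family is low, and the bins of reads were therefore set side by side. With 20 to 100 reads the median SD was 0.289 in 33 P450 genes and 0.317 in all features, with 100 to 300 reads 0.248 and 0.217, with 300 to 1000 reads 0.253 and 0.168, and with 1000 or more 0.181 and 0.161. The median SD of P450 genes was above that of features of like depth in the upper 3 bins, most so between 300 and 1000 reads (32 genes), and below it in the lowest bin. The median coefficient of biological variation, as estimated by edgeR per gene, was 17.9% over P450 genes and 16.5% over all features. From the lowest bin to the highest it was 20.29%, 17.2%, 16.7% and 16.1% in P450 genes. In all features it was 20.31%, 16.5%, 14.8% and 16.1%, so that the bins at both ends were nearly equal on this measure. edgeR draws the estimate of each gene toward the trend over all features, so such closeness is partly built in.

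The replicates also shifted as a whole. The median P450 gene was 0.12 lower in CK3 than in CK2 on the log2 scale, whereas the median feature was 0.05 higher. Against CK1, 50 of 106 P450 genes (47.2%) were higher in CK3, compared with 62.9% of all features. Between CK2 and CK1 the medians were 0.09 for P450 genes and 0.06 for all features. These comparisons share libraries and are not independent.

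A replicate was said to stand apart for a gene if its log2(CPM + 0.5) was at least 1, that is 2-fold, from the mean of the other 2. In CK1, 0 of 106 P450 genes stood above (0.263% of all features) and 5 below (2.39% of features). In CK2, 3 stood above (1.89% of features) and 0 below (1.1% of features). In CK3, 2 stood above (1.84% of features) and 2 below (1.53% of features). As shares of the P450 genes, the low side of CK1 was 4.72% against 2.39%, and the high side of CK2 was 2.83% against 1.89%. In CK3 the shares were near the background, at 1.89% above and 1.89% below. These counts are small, and the differences were not tested.

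The widest range was that of CYP71B26, with 73, 336 and 76 reads, or 8.99, 45.5 and 11.1 CPM. CK2 stood 4.38-fold above the mean of the other replicates, and CK1 and CK3 were close to each other. CYP71B4, its neighbour on the chromosome, had 44.8, 58.4 and 42.6 CPM. CYP71B13 had 29, 86 and 57 reads and was lowest in CK1, and CYP705A27 had 4, 8 and 15 reads. CYP81D8, a stress-responsive gene, had 21, 34 and 47 reads. At the other end, among genes with at least 300 reads in all, CYP706A6 (log2 range 0.06), CYP71B28 (0.07), CYP51G1 (0.10), CYP708A3 (0.11) and CYP72A11 (0.12) varied least.

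**Figure D4:**
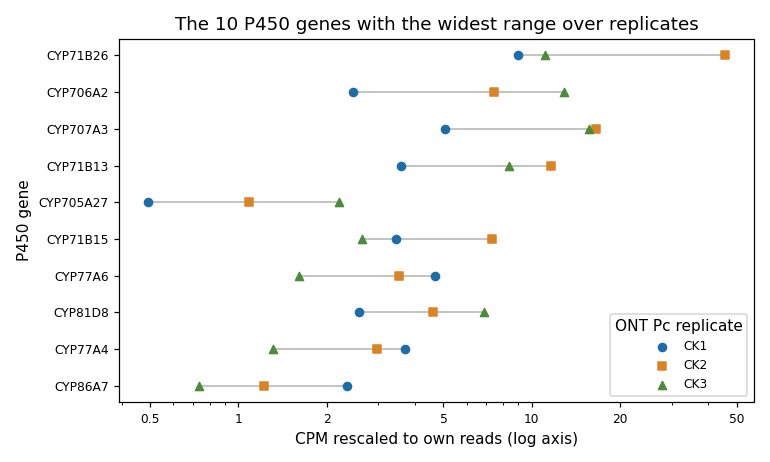
Levels in CPM rescaled to own reads (horizontal log axis) of the 10 P450 genes with at least 20 reads in all and the widest range over the ONT Pc replicates, with 1 symbol per replicate and a grey line over the range. CYP71B26 is high in CK2 alone, CYP707A3 low in CK1 alone, and CYP77A6, CYP77A4 and CYP86A7 are lowest in CK3.

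The most abundant gene and a highly variable one were close copies. CYP706A1 and CYP706A2 both lie on chromosome 4, with 92.1% identity over the aligned coding sequences. They had 40 substitutions, and the rest of the difference was a longer start of CYP706A1. The most different ungapped stretch of 60 bases is shown, with the differing bases in capitals, as the place where the copies are easiest to tell apart.
CYP706A1 (chr4:11929964-11930023, + strand): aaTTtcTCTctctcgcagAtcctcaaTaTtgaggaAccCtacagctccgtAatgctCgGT
CYP706A2 (chr4:11935062-11935121, + strand): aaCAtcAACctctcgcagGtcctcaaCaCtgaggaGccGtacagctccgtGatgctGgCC

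The stretch held 14 of the 40 substitutions, and the heme signature given above held none. CYP706A2 had 20, 55 and 88 reads, or 2.46, 7.45 and 12.9 CPM, whereas CYP706A1 had 141, 227 and 160 CPM. CYP706A2 therefore took 1.72%, 3.17% and 7.46% of the reads of the pair in CK1, CK2 and CK3. CYP706A1 was the higher in all replicates, and the order of the replicates differed between the copies. Whether the counting split reads between them was not tested.

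In all, 18 pairs of P450 genes, made of 30 genes, had at least 90% identity of their coding sequences, and 98 pairs had at least 80%. The closest pair was CYP89A5 and AT2G12190 (96.6%), at 17.8 ± 3.25 and 1.47 ± 0.513 CPM. Next came CYP71B19 and CYP71B20 (96.2%), at 32.8 ± 6.06 and 46.8 ± 7.72 CPM. CYP710A3 and CYP710A4 (95.8%) were not listed. CYP89A6 was not listed, and shared 94.1% with CYP89A5 and 93.0% with AT2G12190. The levels within such pairs are uncertain, since reads of one copy may have been counted for the other.

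CYP71B19 and CYP71B20 are neighbours, and their coding sequences had 58 substitutions. Their most different stretch, in the part that encodes the N-terminal end, is shown with differing bases in capitals.
CYP71B19 (chr3:9575052-9575111, - strand): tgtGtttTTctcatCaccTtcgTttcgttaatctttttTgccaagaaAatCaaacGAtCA
CYP71B20 (chr3:9579916-9579975, - strand): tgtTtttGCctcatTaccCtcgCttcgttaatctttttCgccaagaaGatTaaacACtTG

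CYP71B20 had 319, 404 and 318 reads and CYP71B19 had 210, 271 and 246 reads. Both were lowest in CK1 by CPM, and CYP71B20 was the higher in all 3 replicates.

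Neighbouring P450 genes were frequent in the annotation, where 119 of the 240 genes stood in 39 runs, and 45 in 7 runs of at least 5. Not all neighbours were copies, and some runs joined genes of different families, such as CYP705A12 and CYP71A16. The longest run, of 9 genes, reached from CYP71B16 to CYP71B24 (chr3:9565627-9599988). It summed to 140 ± 24.9 CPM, with CYP71B20 highest (33.4% of the run) and CYP71B21 listed at 0. A second CYP71B run of 7 genes, from CYP71B25 to CYP71B37, summed to 108 ± 32.6 CPM and held CYP71B4 (48.6 CPM) and CYP71B37 (0.270 CPM). The run of 6 genes from CYP72A7 to CYP72A13 summed to 141 ± 14.0 CPM, from 53.6 CPM for CYP72A13 to 0.0410 CPM for CYP72A10.

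In the remaining runs the levels of neighbours also differed. In the run of 7 from CYP705A15 to CYP705A23, CYP705A19 had 20.02 ± 2.78 CPM and CYP705A23 was listed at 0. In the run of 6 from CYP81H1 to CYP81D8, CYP81H1 had 27.9 ± 1.32 CPM and CYP81D8 had 4.69 ± 2.15 CPM, with 2 further genes not listed. In the run of 5 that starts at CYP706A4, CYP706A6 held 66.0% of 93.0 ± 4.58 CPM and CYP706A7 was at 0.323 CPM. In the run of 5 from AT3G20930 to CYP705A33, AT3G20930 held 84.4% of 15.1 ± 2.51 CPM. Its label as a P450 gene is in doubt, as given above, and the counts of runs include it. Of the CYP705A genes in this run, CYP705A33 was at 2.30 CPM and CYP705A30 was listed at 0. Outside these runs, the 4 genes from CYP71B2 to CYP71B7 on chromosome 1 formed the run with the highest sum, at 243 ± 17.3 CPM.

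In the PacBio library the family was represented by 196 isoforms at 70 loci. The list does not pair these loci with genes, so they stand for the whole family of 251 genes, the 11 left out above included. The loci had 2.80 listed isoforms on average, with a median of 2, against 3.32 and a median of 2 over all 7331 loci with a Pfam family. At 45 loci (64.3%) at least 2 isoforms were listed, compared with 60.7% of all loci, and 25 had 1 listed. Only isoforms with a Pfam family are in the list, and their numbers have gaps. At PB.4499, for example, the only isoform listed was number 9. Other isoforms of a locus may therefore be missing from these counts. The list gives no read counts, so an isoform is listed or not, and depth per locus is unknown.

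The locus PB.10297 had 11 listed isoforms, PB.2885 had 9, PB.6469 and PB.900 had 7 each, and PB.4209, PB.480 and PB.6471 had 6 each. Only PB.10297 was in the class of 11 or more, which held 1.43% of P450 loci and 4.11% of all loci. In the reference annotation 58 of the 240 genes had 2 or more transcripts, and the most was 6. Of the 70 loci, 24 had another P450 locus at the next or previous number. At 2 loci, isoforms were also listed in other families: PB.7172, with 4 isoforms, under a dimerisation domain and O-methyltransferase, and PB.5564, which had 2 P450 isoforms among 21 isoforms spread over unrelated families. Per 100 reference genes there were 27.9 P450 loci, 20.7 UDP-glycosyltransferase loci, 29.7 glutathione S-transferase loci and 33.1 loci over all families. The authors describe the PacBio library as size-fractionated, so families that differ in transcript length may be sampled unequally. The effect on these rates was not tested.

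**Figure D5:**
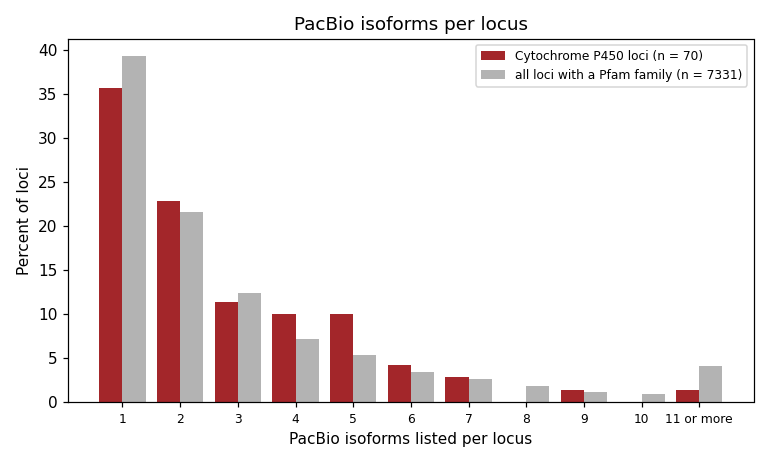
Percent of PacBio loci (vertical axis) by the number of isoforms listed per locus (horizontal axis), for 70 Cytochrome P450 loci (red bars) and all 7331 loci with a Pfam family (grey bars). Loci with 1 listed isoform make up 35.7% of P450 loci and 39.3% of all loci, and 1 P450 locus has 11 or more listed.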

How the data were processed

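The ONT Pc table holds CPM per gene as deposited by the authors, made with Guppy (base calling), Racon (consensus), GMAP (mapping) and Salmon (counting). TAIR10 and minimap2 are named in the submitters' processing notes. Versions of Racon, GMAP and Salmon are not given in the sources used here. For PacBio, a deposited list of Pfam families with transcript identifiers was used, which holds no measurement. Its lists of 2 kinase families end within an identifier, so totals over all families are slightly low. Per-sample columns left unused: 0.

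In each replicate, 100% of the deposited CPM values above 0 were whole multiples of 1 step (tolerance 0.01 reads), so reads were recovered: 8122432 reads for CK1, 7386184 for CK2, and 6835029 for CK3. The columns added to 1000000, 476263 and 305905 CPM, and levels were therefore rescaled to each replicate's own reads. With 1 group no count test could be run. Comparisons between replicates used log2 with a pseudocount of 0.5. edgeR 4.0.16 (TMM, dispersion) and DESeq2 1.42.0 (size factors) served as alternatives. On simulated data the estimated dispersion was checked against the known value.

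Names, positions, transcript lengths and coding sequences came from RefSeq TAIR10.1, whose positions are printed, since the files hold none. All 240 genes were matched, 228 with a CYP name. Identity was computed from coding sequences in place of the planned protein sequences, with Biopython 1.88. The genes named were the 25 with the highest mean CPM, all members of the role lists, the 10 with the widest range, the highest and lowest of runs of at least 5 neighbours, the 5 closest pairs and the 5 PacBio loci with most isoforms. Other genes, loci and runs named were chosen after their values were seen. Members and lists were chosen with earlier results of these data known. PCR copies without molecular identifiers are not independent, so limits such as 3 reads cover counting error only.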

Additional observations from a re-analysis of the deposited data

How the results depend on the processing

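Of 57 alternatives, 44 left a result within 1.5 times its count or within its spread between replicates, and 13 moved it. The summed level of the 240 genes, 2318 CPM, was 3001 CPM with the 11 excluded genes put back, and 2142 CPM without CYP706A1, an alternative chosen after seeing the data. The median log2 level of listed genes, 1.47, was 1.71 with a pseudocount of 1, 1.25 with 0.1 and 3.46 with only genes of 20 or more reads. The genes apart in CK1, 5 in number, were 8 without a filter on reads and 4 to 8 when 1 of the other replicates was left out. Those apart in CK2, 3 in number, were then 4 to 5. Those apart in CK3, 4 in number, were 1 with a pseudocount of 1, 7 with 0.1, 7 without a filter, 1 with at least 100 reads and 5 to 8 when 1 of the others was left out. PacBio loci numbered 70, and 45 with at least 2 listed isoforms. These moves follow from the genes, values or replicates each setting takes in. No paired analysis was possible because there is only 1 group of replicates. Depth limits genes near 3 reads, whose levels cannot be ordered.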
